A study of Homo sapiens with 27 samples.

Results

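Delivery of Cas9 with a guide RNA against HPRT was compared with delivery of Cas9 with a non-targeting guide across all genes, in 8 of the 27 libraries of the study. These 8 were chosen by their titles: the 4 positive control libraries of experiment set A (HPRT-targeted) and the 4 negative control libraries of the same set. Both groups were teloHAEC, human aortic endothelial cells made immortal and sold as a line, and both received S. pyogenes HiFi Cas9 complexed with an annealed crRNA and tracrRNA by electroporation of 150000 cells per replicate. The only labelled difference was the crRNA, and RNA was collected 2 days later. Libraries counted the 3′ ends of messenger RNAs (QuantSeq). The other libraries of set A came from 4 electroporations with guides flanking a candidate enhancer of SMAD3; they entered the same fit and gave the shared estimate of spread. Set B holds 4 more HPRT-targeted and 7 more negative control libraries, none shared with set A. The rest of its 15 libraries are 4 LDAH deletion libraries, which entered the fit of set B and that of all 27 libraries. Cells were a transfected pool and not a clone, and the labels give no share of edited cells. Replicates were separate electroporations, and nothing says that they came from separate cultures, so p-values measure only how these libraries scatter, which may be technical.

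HPRT1 encodes hypoxanthine phosphoribosyltransferase, which salvages hypoxanthine and guanine into purine nucleotides, and it lies on the X chromosome. A guide against it is a common positive control for Cas9 editing. A Cas9 cut is a double-strand break, whereas a non-targeting guide leaves Cas9 without a site to cut. Broken DNA activates the kinases ATM and DNA-PK, which stabilise p53. p53 then induces CDKN1A, MDM2 and other targets, and through the CDKN1A protein p21 it holds RB-family proteins on the promoters of replication and mitotic genes.

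Library totals were 7.75, 6.27, 6.39 and 4.76 M (mega) counts in HPRT-targeted replicates 1 to 4, and 6.94, 5.19, 6.52 and 5.40 M in negative control replicates 1 to 4. HPRT-targeted replicate 3 stood apart: its expression correlated with that of each other set A library at a median r of 0.960, against 0.977 to 0.981 for the other 7. Its ribosomal protein genes took 15.2% of counts and its mitochondrial genes 1.53%, against 13.2% to 14.4% and 2.49% to 3.11% in the other HPRT-targeted libraries and 12.7% to 13.9% and 2.08% to 2.55% in the negative controls. SMAD3 deletion replicate 4 stood further apart, at 0.924, so counts are given below also without these 2 libraries. All 11 endothelial markers examined were present, with summed levels, in CPM (counts per M of the library), of 1352 to 1850 in HPRT-targeted libraries and 1665 to 1768 in negative controls. Of these, VWF was low, at 0.782 to 2.87 CPM in HPRT-targeted libraries and 2.45 to 3.08 CPM in negative controls, and EMCN was at 3.29 to 8.90 and 2.12 to 8.64 CPM. Of 9 smooth muscle and fibroblast markers, ACTA2 and PDGFRA are in the table, at sums of 31.3 to 47.6 and 24.5 to 33.3, and of 6 blood markers CD14 is, at 1.03 to 1.41 and 0.432 to 1.07. The other blood, smooth muscle and fibroblast markers and 4 epithelial ones were not analysed here.

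HPRT1 itself (ENSG00000165704, chrX:134460153-134520513, plus strand, GRCh38) was at 29.5, 30.0, 42.2 and 28.05 CPM (scaled by TMM factors, as are all gene levels that follow) in the HPRT-targeted libraries, against 34.7, 37.2, 38.7 and 52.8 CPM in the negative controls. The groups overlapped through HPRT-targeted replicate 3, which was above 3 of the 4 negative controls, while the other 3 HPRT-targeted libraries were below all of them. Means were 32.4 ± 6.6 CPM in HPRT-targeted cells and 40.9 ± 8.1 CPM in negative controls (SD, n = 4 each), a log2 fold change of -0.33 ± 0.21 (SE). A two-sided exact permutation test over the 8 libraries gave p = 0.114, where 0.0286 is the smallest of its 70 arrangements. Without HPRT-targeted replicate 3 the exact permutation p was 0.0571, and leaving out any other single library gave 0.114 to 0.257. With edgeR, the log2 fold change without both libraries that stand apart was -0.48 (adjusted p = 0.748). Counts of HPRT1 do not check the cutting: a small insertion or deletion need not alter the number of 3′ ends, and the position of the guide is not given in the sources used here.

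Across the transcriptome no gene was called. Of 11467 genes tested with edgeR's quasi-likelihood test, 0 (0%) had a Benjamini-Hochberg adjusted p under 0.05, and the smallest adjusted p was 0.988. At an unadjusted p under 0.05 there were 257 genes (2.24%), of which 129 (1.12%) were higher and 128 (1.12%) lower in HPRT-targeted cells. The fold changes were small: 94.1% of genes were within 0.5 of zero on the log2 scale, the median was -0.0050 and the median SE 0.19. In 257 genes (2.24%) all 4 HPRT-targeted libraries were above all 4 negative controls, and in 241 (2.10%) all 4 were below.

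DESeq2 called 1 gene, a second Ensembl entry of MATR3 (ENSG00000280987), named after its values were seen. That entry was at 11.5 CPM in HPRT-targeted replicate 1 and at 0 in the other 7 libraries, and it overlaps the main MATR3 entry on the same strand. Without the 2 libraries that stand apart, edgeR called 1 of 11574 genes (0.00864%), and 687 (5.94%) had an unadjusted p under 0.05, 337 (2.91%) higher and 350 (3.02%) lower. The called gene was DPH1, which encodes an enzyme of diphthamide synthesis and was named after its values were seen. DPH1 (chr17:2030110-2043430) was at 0.679, 0, 36.8 and 0 CPM in HPRT-targeted libraries, against 3.35, 23.3, 19.8 and 23.0 CPM in negative controls. HPRT-targeted replicate 3 had the highest level of all 8 libraries. The log2 fold change was -0.85 with all libraries (edgeR, adjusted p = 0.988), -5.89 without that library alone, where DPH1 was not called (adjusted p = 0.102), and -5.87 without both libraries that stand apart (adjusted p = 0.00167). DPH1 shares its 3′ region with OVCA2 on the same strand, so 3′ counts could be split between them.

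**Figure D1:**
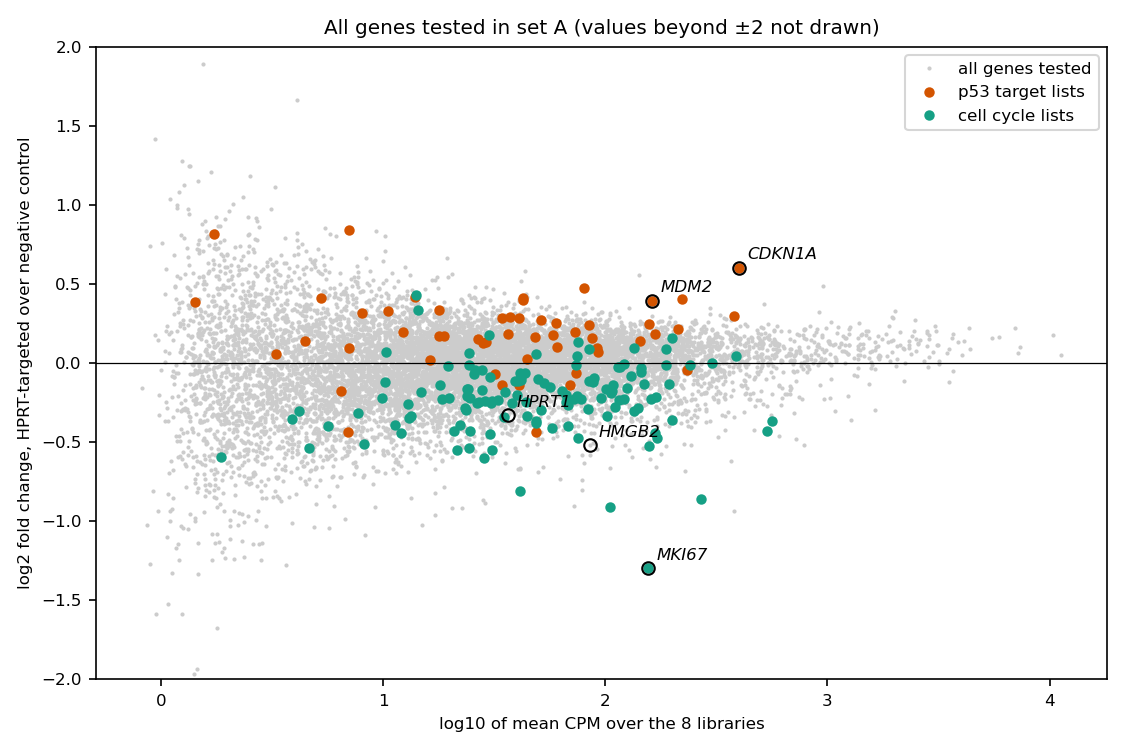
Log2 fold change of each gene tested, HPRT-targeted over negative control libraries of set A, against the log10 of its mean CPM over the 8 libraries; 4 genes beyond the axis are not drawn. Members of the p53 target lists (orange) lie mostly above zero and members of the cell cycle lists (green) mostly below, with MKI67 lowest of the labelled genes at -1.30.

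The target genes of p53 had higher levels in HPRT-targeted cells more often than lower ones, and the cell cycle genes lower ones. Of 53 tested p53 targets out of 56 listed, 44 had a positive log2 fold change and 9 a negative one, with a median of 0.18. Over all genes 5619 of 11467 (49.0%) were positive. Of 126 tested cell cycle genes, 14 were positive and 112 negative, with a median of -0.22. No member of either set passed the adjusted threshold in the full comparison, and 6 p53 targets (all higher) and 7 cell cycle genes (1 higher, 6 lower) had an unadjusted p under 0.05, against 1.12% of all genes in each direction. Without the 2 libraries that stand apart 44 p53 targets and 7 cell cycle genes were positive and 9 and 119 negative, where 49.2% of all genes were positive, and those at an unadjusted p under 0.05 were 14 (all higher) and 46 (all lower), against 2.91% of all genes higher and 3.02% lower. The gene lists and the libraries left out were chosen with earlier results of these data known. The list counts here and below therefore describe these libraries and are not a test. In bulk RNA, fewer cells of a kind and less RNA per cell cannot be told apart.

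**Figure D2:**
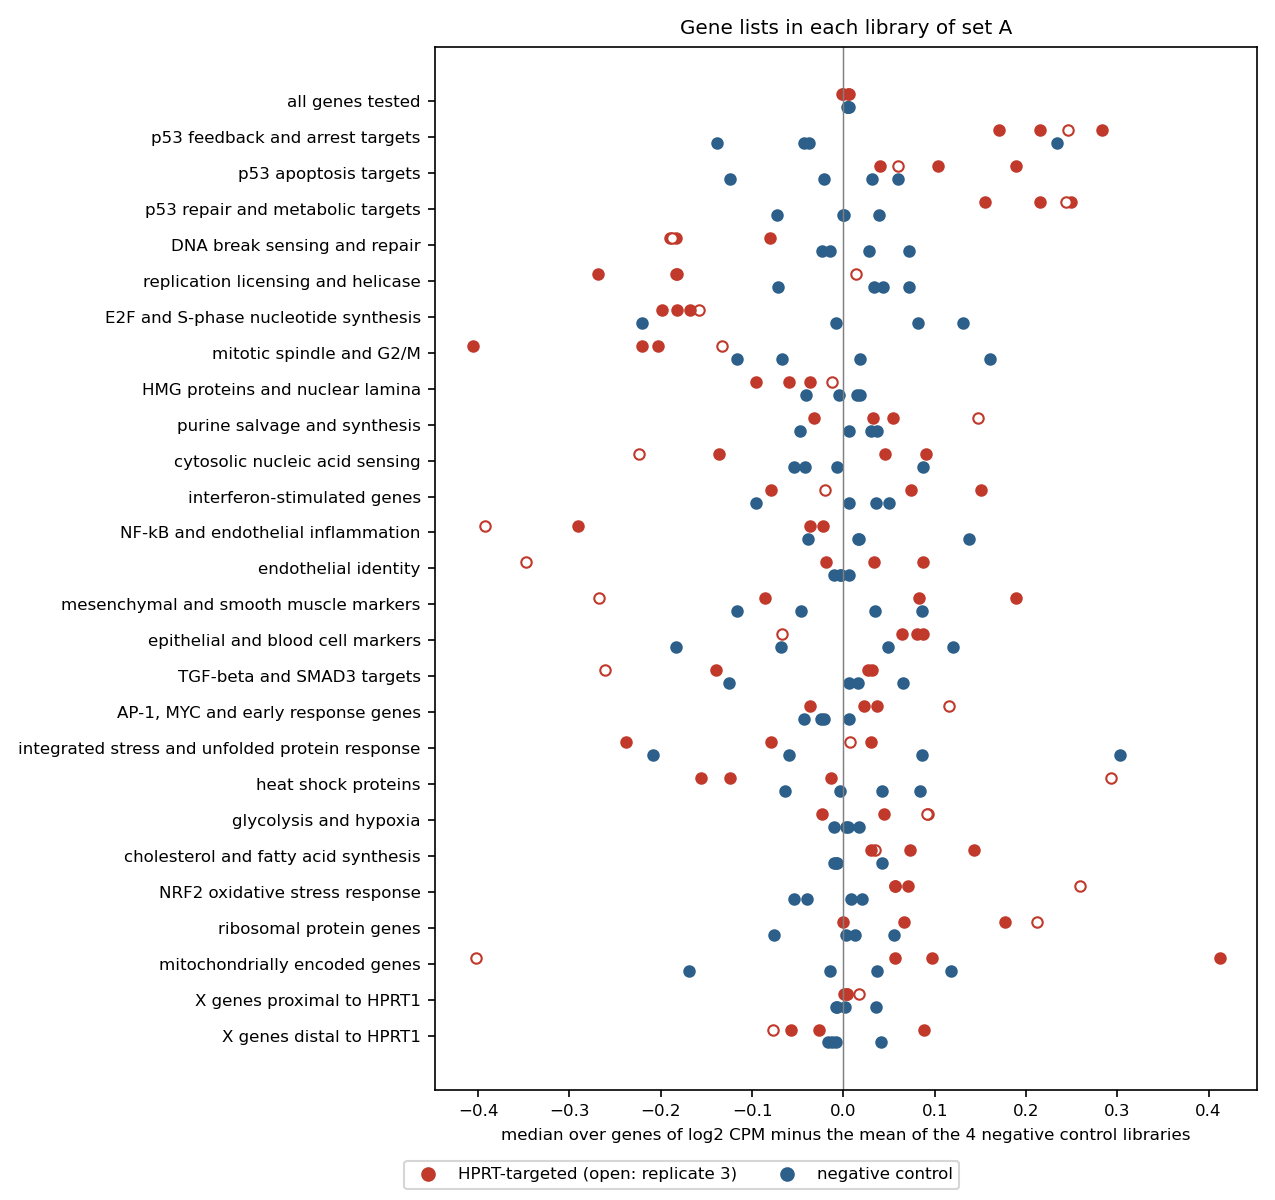
Median over each list's genes of log2 CPM minus the gene's mean in the 4 negative controls, 1 point per library; 0 is the negative control mean. The p53 repair and metabolic targets, the DNA break genes, the mitotic genes and the NRF2 genes separate the groups. The licensing and S-phase lists overlap, and replicate 3 (open) is displaced in the endothelial, heat shock and mitochondrial lists.

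Among the feedback and arrest targets of p53, 17 of 19 tested genes were higher, the median log2 fold change was 0.19, and 2 had an unadjusted p under 0.05, both higher, where 1.12% of all genes did in that direction. Their median in each library, relative to the negative control mean, was 0.28, 0.22, 0.25 and 0.17 in HPRT-targeted replicates 1 to 4, against 0.23, -0.14, -0.04 and -0.04 in negative controls. Negative control replicate 1 was within the range of the HPRT-targeted libraries, and the other 3 were below it.

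CDKN1A, which encodes the cyclin-dependent kinase inhibitor p21, was at 594, 460, 473 and 406 CPM in HPRT-targeted libraries, against 418, 282, 294 and 278 CPM in negative controls. One negative control, replicate 1, overlapped the lowest HPRT-targeted library, and the other 3 were below all 4. The log2 fold change was 0.60 ± 0.19 (edgeR, adjusted p = 0.988). MDM2, the ubiquitin ligase that degrades p53 and is itself induced by it, was at 221, 166, 183 and 167 CPM, against 185, 125, 116 and 134 CPM in negative controls, a log2 fold change of 0.39 ± 0.16. Here too negative control replicate 1 was high and was the one library to overlap. ZMAT3, a zinc finger RNA-binding protein, was at 330, 246, 207 and 226 CPM in HPRT-targeted libraries, against 253, 181, 177 and 149 CPM in negative controls (log2 fold change 0.41 ± 0.21), with the same negative control inside the HPRT-targeted range. GDF15, a secreted stress cytokine, was at 154, 184, 174 and 170 CPM in HPRT-targeted libraries, against 151, 121, 143 and 161 CPM in negative controls, a log2 fold change of 0.24 ± 0.13 with overlapping groups.

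Of the apoptosis targets of p53, 12 of 16 tested were higher, with a median of 0.12. Of these genes 11 were higher and 5 lower without the 2 libraries that stand apart, with a median of 0.072, and without HPRT-targeted replicate 3 alone it was 0.067. DRAM1, a lysosomal membrane protein of autophagy, was at 48.5, 47.2, 52.3 and 46.2 CPM, against 39.9, 31.2, 37.7 and 38.6 CPM in negative controls, and all 4 HPRT-targeted libraries were above all 4 negative controls (log2 fold change 0.40 ± 0.13). PERP, a membrane protein of desmosomes, did not overlap either, at 224 to 234 CPM in HPRT-targeted libraries and 183 to 215 CPM in negative controls. BBC3, which encodes the BH3 protein PUMA, had a log2 fold change of 0.24 ± 0.14 with overlapping groups. BAX, the pore-forming effector, averaged 16.4 ± 2.0 CPM in HPRT-targeted cells and 16.1 ± 3.2 CPM in negative controls, and the death receptor FAS 7.23 ± 1.9 and 6.78 ± 0.92 CPM (SD, n = 4 each). Their log2 fold changes, 0.02 and 0.09, were smaller than their SEs of 0.18 and 0.27.

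The repair and metabolic targets had the highest median of the 3 p53 lists, 0.27, with 16 of 19 tested genes higher. By library the median was 0.21, 0.25, 0.24 and 0.16 in HPRT-targeted cells, against 0.04, 0.00, -0.00 and -0.07 in negative controls, so that the groups did not overlap. CMBL, a cytosolic hydrolase, was at 7.33, 7.78, 11.1 and 10.1 CPM, against 5.25, 4.63, 5.32 and 4.96 CPM in negative controls, a log2 fold change of 0.84 ± 0.26 with no overlap. RRM2B, the p53-inducible small subunit of ribonucleotide reductase, was at 95.03, 78.1, 111 and 87.9 CPM, against 92.5, 61.5, 55.8 and 58.7 CPM in negative controls, where replicate 1 again lay inside the HPRT-targeted range (log2 fold change 0.47 ± 0.19). FDXR, the mitochondrial ferredoxin reductase, was at 47.9, 48.5, 52.8 and 45.8 CPM, against 39.3, 33.7, 36.01 and 37.1 CPM in negative controls, with no overlap and a log2 fold change of 0.41 ± 0.18. RPS27L, a paralogue of ribosomal protein S27, was at 372 to 476 CPM in HPRT-targeted libraries and 313 to 363 CPM in negative controls, also without overlap (0.30 ± 0.15); it lies opposite LACTB. None of these genes had an adjusted p under 0.05 (edgeR, 0.988 for each).

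**Figure D3:**
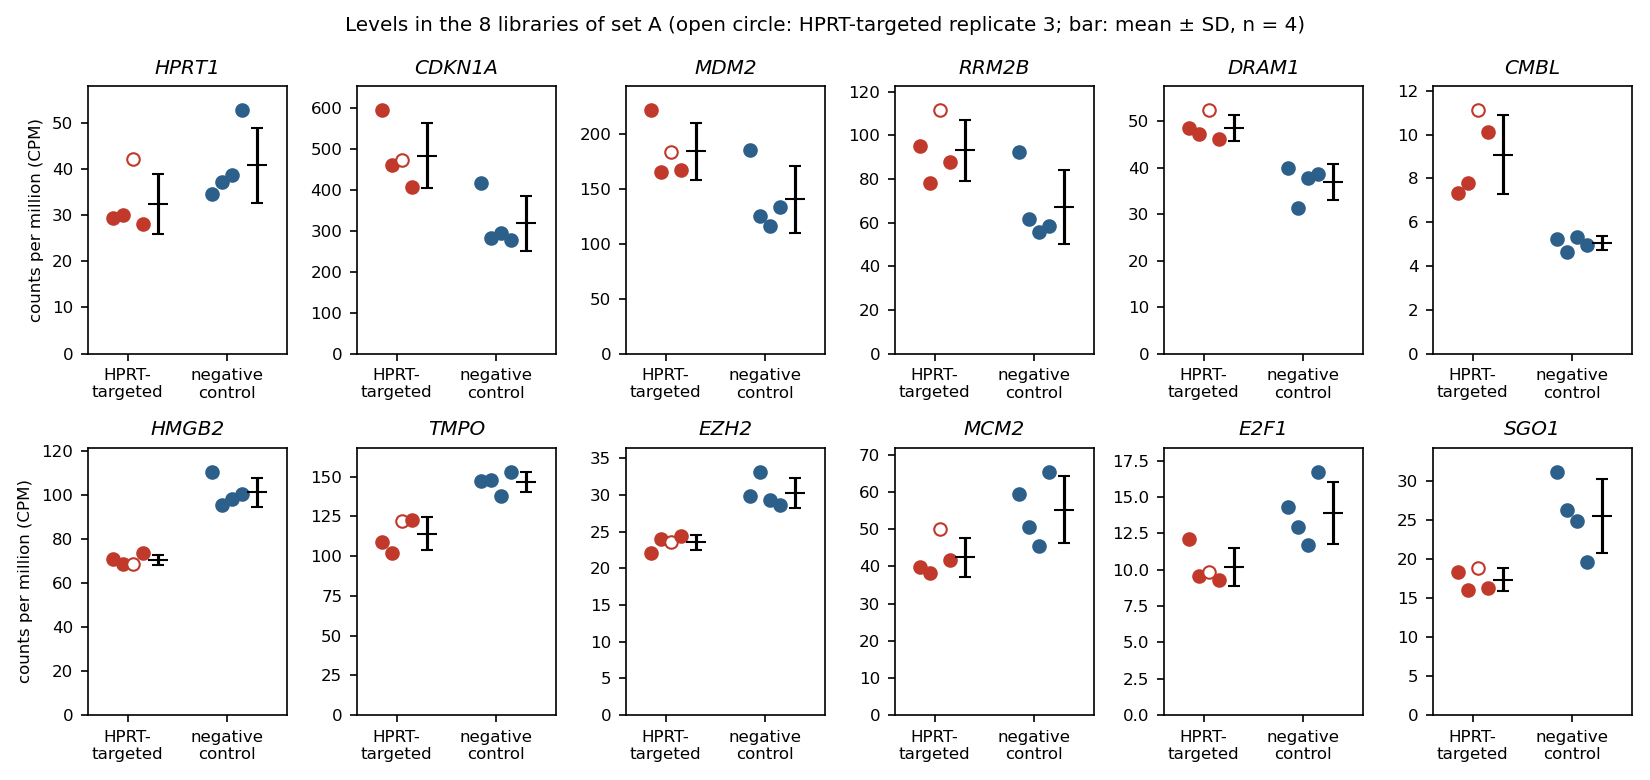
Level in CPM of 12 genes in each library, HPRT-targeted at left and negative control at right, with the mean and SD of 4 libraries; the open circle is HPRT-targeted replicate 3. DRAM1, CMBL, HMGB2, TMPO, EZH2 and SGO1 do not overlap between the groups, while HPRT1, CDKN1A, MDM2, RRM2B, MCM2 and E2F1 overlap through 1 or 2 libraries. Over all genes 2.24% were higher and 2.10% lower without overlap. Some of the 12 genes were named for their small p-values, so nothing is read from how many do not overlap.

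Genes of DNA break sensing and repair were mostly lower: 33 of 48 were negative, the median log2 fold change was -0.12, and 4 had an unadjusted p under 0.05, all lower, where 1.12% of all genes did in that direction. Their median was -0.19, -0.18, -0.19 and -0.08 in HPRT-targeted replicates 1 to 4, against 0.03, 0.07, -0.01 and -0.02 in negative controls, with no overlap. XRCC2, a gene of homologous recombination, was at 4.62, 5.35, 3.01 and 5.06 CPM, against 8.60, 10.2, 9.12 and 7.72 CPM in negative controls, a log2 fold change of -0.98 ± 0.34 with no overlap. WEE1, the kinase that restrains entry into mitosis, was at 18.5 to 21.4 CPM in HPRT-targeted libraries and 21.2 to 31.6 CPM in negative controls, touching at 1 library (-0.39 ± 0.15). RAD52 (-1.14 ± 0.41) and XRCC3 (-0.67 ± 0.30), also recombination genes, averaged 1.11 and 3.15 CPM in HPRT-targeted cells and 2.39 and 5.02 CPM in negative controls, and both overlapped. XRCC3 lies opposite KLC1. These 4 genes were named for the smallest p-values of the list and do not stand for all of it. In the list 15 genes were positive, among them XRCC6 at 0.10, XRCC4 at 0.09 and XRCC5 at 0.08. PRKDC at -0.10 and DCLRE1C at -0.48 were among the lower ones.

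Replication licensing genes load the MCM helicase on DNA before S phase. Of 40, 34 had a negative log2 fold change, with a median of -0.20, and their median by library was -0.18, -0.27, 0.01 and -0.18 in HPRT-targeted replicates 1 to 4, against 0.04, 0.07, -0.07 and 0.03 in negative controls. HPRT-targeted replicate 3 was the one out of line with its group. MCM2, a helicase subunit, was at 39.9, 38.1, 49.97 and 41.8 CPM in HPRT-targeted libraries, against 59.6, 50.5, 45.6 and 65.5 CPM in negative controls, with replicate 3 in the negative control range (-0.38 ± 0.15). MCM10, which activates the helicase, was at 26.5, 22.2, 20.9 and 21.1 CPM, against 32.8, 41.5, 32.7 and 31.1 CPM in negative controls (-0.60 ± 0.25), and CDT1, the loading factor, at 11.68, 11.996, 11.90 and 11.60 CPM, against 14.7, 15.6, 13.5 and 15.8 CPM (-0.34 ± 0.15). Neither overlapped between the groups. ORC4, a subunit of the origin recognition complex, went the other way at 16.1 ± 1.9 CPM in HPRT-targeted cells and 11.9 ± 1.7 CPM in negative controls (SD, n = 4 each; log2 fold change 0.43 ± 0.19) and lies opposite ACVR2A.

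Among E2F and S-phase nucleotide synthesis genes, 22 of 24 were negative, with a median of -0.21. By library the median was -0.18, -0.20, -0.16 and -0.17 in HPRT-targeted cells, against 0.08, -0.01, -0.22 and 0.13 in negative controls, and negative control replicate 3 was below all 4 HPRT-targeted libraries. E2F1, the transcription factor that drives S-phase genes, was at 12.1, 9.56, 9.84 and 9.28 CPM, against 14.3, 12.9, 11.7 and 16.7 CPM in negative controls, overlapping at 1 library on each side (-0.44 ± 0.18). UHRF1, which maintains DNA methylation, was at 14.1 to 22.6 CPM in HPRT-targeted libraries and 22.7 to 34.5 CPM in negative controls, and CHAF1B, a histone chaperone subunit, at 9.07 to 10.6 and 11.2 to 15.4 CPM; neither overlapped. PCNA, the polymerase clamp, was at 85.6 ± 20 CPM in HPRT-targeted cells and 91.6 ± 17 CPM in negative controls (SD, n = 4 each), a log2 fold change of -0.10 ± 0.17.

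Of 62 genes of the mitotic spindle and G2/M, 56 had a negative log2 fold change, with a median of -0.23. By library the median was -0.22, -0.41, -0.13 and -0.20 in HPRT-targeted replicates 1 to 4, against 0.16, 0.02, -0.12 and -0.07 in negative controls, with no overlap. In 10 the HPRT-targeted libraries were all below the negative controls, where 2.10% of all genes were, and 2 had an unadjusted p under 0.05, where 1.12% of all genes did in that direction. Without the 2 libraries that stand apart 60 of 62 were negative and 29 had an unadjusted p under 0.05, where 3.02% of all genes did in that direction. SGO1, shugoshin, which protects sister chromatid cohesion, was at 18.3, 16.05, 18.9 and 16.2 CPM in HPRT-targeted libraries, against 31.2, 26.2, 24.9 and 19.7 CPM in negative controls, a log2 fold change of -0.55 ± 0.22 with no overlap. NCAPD2, a condensin subunit, was at 46.4, 48.9, 48.9 and 53.99 CPM, against 73.4, 60.7, 61.8 and 67.3 CPM in negative controls (-0.41 ± 0.17), and TOP2A, topoisomerase II alpha, at 544, 495, 429 and 499 CPM, against 665, 689, 620 and 564 CPM (-0.37 ± 0.26). All 4 HPRT-targeted libraries were below the negative controls for both genes.

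MKI67, the proliferation antigen Ki-67, was at 79.7, 147, 12.8 and 120 CPM in HPRT-targeted libraries, against 193, 304, 243 and 145 CPM in negative controls. Replicate 3 was far below the rest, and replicate 2 overlapped the lowest negative control. The log2 fold change was -1.30 ± 0.74, and -0.93 without the 2 libraries that stand apart, where its adjusted p was 0.825 (edgeR). PLK1, polo-like kinase 1, and CDK1, the mitotic cyclin-dependent kinase, averaged 99.8 ± 13 and 71.5 ± 5.5 CPM in HPRT-targeted cells and 121 ± 18 and 83.7 ± 10 CPM in negative controls (SD, n = 4 each), with overlap (-0.28 ± 0.14 and -0.23 ± 0.12). CCNB1, cyclin B1, was at 143 ± 29 CPM in HPRT-targeted cells and 147 ± 28 CPM in negative controls, a log2 fold change of -0.03 ± 0.18. PCNA, CDK1 and CCNB1 were each at their highest among the 4 HPRT-targeted libraries in replicate 3, the library with the lowest MKI67.

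High mobility group and lamina proteins, which shape chromatin and the nuclear envelope, had 14 of 23 genes lower, with a median of -0.13; 3 had an unadjusted p under 0.05, all lower and without overlap, where 1.12% of all genes were lower at that p and 2.10% were lower without overlap. HMGB2, a DNA-bending chromatin protein, was at 70.9, 68.7, 68.7 and 73.6 CPM in HPRT-targeted libraries, against 110, 95.3, 98.0 and 101 CPM in negative controls, a log2 fold change of -0.52 ± 0.18. The groups did not overlap, and replicate 3 lay with the other HPRT-targeted libraries. TMPO, the lamina-associated polypeptide 2, was at 109, 102, 122 and 123 CPM, against 147, 148, 138 and 153 CPM in negative controls (-0.36 ± 0.13). HMGB3 was at 87.8, 87.4, 94.1 and 82.0 CPM in HPRT-targeted libraries, against 107, 104, 102 and 99.3 CPM in negative controls (-0.23 ± 0.10). LMNB1, lamin B1, was at 65.7 ± 7.1 CPM in HPRT-targeted cells and 75.6 ± 4.1 CPM in negative controls (SD, n = 4 each), with overlap through replicate 3 (-0.20 ± 0.13).

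Promoters of the listed genes were searched for letters that known cell cycle factors and p53 bind. E2F proteins and the DREAM and MuvB complexes bind E2F sites and CHR elements, and CCAAT boxes bind NF-Y; RefSeq promoter windows (GRCh38.p14, 250 bases before to 50 after the gene start) were searched on both strands. The CHR letters were TTTGAA, the CCAAT box CCAAT, and the E2F letters TTTCGCGC, TTTGGCGC, TTTCCCGC or TTTGCCGC. CHR letters were in 35 of 54 mitotic promoters (64.8%), against 9.70% of the 9256 promoters of all tested genes, and CCAAT in 39 (72.2%), against 37.3%. CCAAT was not particular to mitotic genes. It was in 21 of 27 integrated stress promoters (77.8%) and 17 of 25 cholesterol and fatty acid promoters (68.0%), but in 5 of 24 purine promoters (20.8%). E2F letters were in 16 of 35 licensing promoters (45.7%) and 7 of 21 E2F and S-phase promoters (33.3%), against 5.68%. The p53 half-site was also searched as a pattern of letters, and the capitals in the FDXR window below mark a match. The full pattern is not given here. Matches were in 4 of 41 promoters of p53 targets (9.76%), against 5.14% of the promoters of all tested genes. They were in 9 of 110 promoters of cell cycle genes (8.18%). However, p53 often binds introns and distant elements outside these windows. A match of letters is not a bound site.

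Windows of 4 genes with a negative log2 fold change and 1 with a positive one are shown, since they hold the letters counted above; capitals mark the matched letters. E2F1 (chr20:33686336-33686635, minus strand) holds 2 E2F and 3 CCAAT matches, and MCM2 (chr3:127598161-127598460, plus strand) 2 overlapping E2F matches. PLK1 (chr16:23678639-23678938, plus strand) holds 1 CHR and 1 CCAAT match, and NCAPD2 (chr12:6493852-6494151, plus strand) 1 CHR and 4 CCAAT matches. FDXR (chr17:74872945-74873244, minus strand) holds 1 p53 half-site and none of the other letters.
E2F1: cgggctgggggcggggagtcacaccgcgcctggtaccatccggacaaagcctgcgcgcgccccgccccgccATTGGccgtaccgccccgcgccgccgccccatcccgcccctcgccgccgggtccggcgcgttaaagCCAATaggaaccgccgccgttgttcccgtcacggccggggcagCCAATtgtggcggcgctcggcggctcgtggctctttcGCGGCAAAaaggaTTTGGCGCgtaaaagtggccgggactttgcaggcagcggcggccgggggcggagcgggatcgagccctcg
MCM2: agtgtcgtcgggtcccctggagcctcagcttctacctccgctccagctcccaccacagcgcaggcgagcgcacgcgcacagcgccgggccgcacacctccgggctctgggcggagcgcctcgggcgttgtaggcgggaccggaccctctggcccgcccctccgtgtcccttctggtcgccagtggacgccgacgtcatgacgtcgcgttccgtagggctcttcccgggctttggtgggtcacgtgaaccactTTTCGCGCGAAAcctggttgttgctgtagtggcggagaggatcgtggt
PLK1: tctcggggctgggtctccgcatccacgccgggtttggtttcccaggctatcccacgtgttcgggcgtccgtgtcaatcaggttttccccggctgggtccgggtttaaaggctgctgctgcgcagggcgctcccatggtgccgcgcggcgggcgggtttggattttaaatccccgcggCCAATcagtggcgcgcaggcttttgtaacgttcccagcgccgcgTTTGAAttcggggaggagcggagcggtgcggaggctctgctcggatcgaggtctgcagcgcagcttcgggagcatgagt
NCAPD2: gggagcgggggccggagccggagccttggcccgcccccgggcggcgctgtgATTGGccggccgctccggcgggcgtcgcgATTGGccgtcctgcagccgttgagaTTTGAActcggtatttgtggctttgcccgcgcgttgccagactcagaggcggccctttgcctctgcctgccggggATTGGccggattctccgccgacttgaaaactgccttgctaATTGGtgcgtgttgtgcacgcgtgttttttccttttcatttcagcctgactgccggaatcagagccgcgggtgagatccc
FDXR: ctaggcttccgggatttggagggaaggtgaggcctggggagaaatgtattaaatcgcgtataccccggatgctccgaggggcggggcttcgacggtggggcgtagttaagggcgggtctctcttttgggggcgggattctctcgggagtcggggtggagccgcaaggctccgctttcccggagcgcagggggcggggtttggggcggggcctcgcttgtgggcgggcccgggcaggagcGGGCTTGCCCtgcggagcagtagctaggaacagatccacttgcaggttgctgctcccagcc

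The 10 genes of smallest unadjusted p in each direction, among those with a mean of at least 10 CPM, had log2 fold changes of 0.39 to 0.66 and -0.56 to -0.36 and the same adjusted p of 0.988 (edgeR). In 8 of the higher and 9 of the lower 10 the groups did not overlap, against 2.24% and 2.10% of all genes; since small p-values chose these genes, nothing is read from that count. CYB5R1, a cytochrome b5 reductase, led the higher genes at 35.6, 29.02, 38.9 and 31.8 CPM, against 26.4, 22.8, 22.8 and 24.8 CPM in negative controls (0.48 ± 0.12). GASK1B, a Golgi protein, was at 52.0, 60.3, 44.4 and 51.9 CPM in HPRT-targeted libraries, against 31.2, 34.5, 37.1 and 36.4 CPM in negative controls (0.58 ± 0.15), and both genes had no overlap. POLB, the polymerase of base excision repair, was at 19.8, 22.4, 30.0 and 23.4 CPM, against 17.1, 12.3, 12.6 and 18.2 CPM in negative controls, also without overlap (0.66 ± 0.19). The others included LINC01013 (0.39), PSTPIP2 (0.55), CHKA (0.43), SLFN12 (0.41), RGS20 (0.64) and CDKN1A; CHKA overlaps an antisense gene.

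The lower 10 were led by SNHG1, a host gene of small nucleolar RNAs, at 24.2, 17.99, 23.2 and 26.995 CPM in HPRT-targeted libraries, against 32.8, 36.4, 28.7 and 33.1 CPM in negative controls (-0.51 ± 0.15). NRM, the inner nuclear membrane protein nurim, was at 29.6, 27.7, 24.0 and 29.1 CPM, against 38.2, 36.1, 33.7 and 35.7 CPM in negative controls (-0.38 ± 0.11). EZH2, the histone methyltransferase of Polycomb repressive complex 2, was at 22.1, 24.0, 23.6 and 24.5 CPM in HPRT-targeted libraries, against 29.9, 33.2, 29.3 and 28.7 CPM in negative controls (-0.36 ± 0.11). In all 3 genes every HPRT-targeted library was below every negative control. HMGB2, WDR76 (-0.44), DVL2 (-0.52), HERPUD2 (-0.36), LRRC57 (-0.51), L3HYPDH (-0.52) and RPRD1B (-0.56) completed the group; L3HYPDH shares its 3′ region with GPR135 on the same strand, and LRRC57 lies opposite SNAP23 and RPRD1B opposite TGM2.

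Genes of purine salvage and synthesis, the pathway HPRT1 belongs to, were near zero: 16 of 27 tested were positive and 11 negative, the median log2 fold change was 0.04, and 0 had an unadjusted p under 0.05, where 2.24% of all genes did. ADA, which deaminates adenosine, had a log2 fold change of 0.25 ± 0.14, the adenosine kinase ADK 0.19 ± 0.14 and the guanylate kinase GUK1 0.26 ± 0.18, all with overlapping groups.

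Cas9 cuts can cost a cell the chromosome end beyond the cut, and genes on X were therefore divided at HPRT1. The 70 tested genes distal to HPRT1 had a median log2 fold change of -0.03, with 29 positive and 41 negative, and the 295 proximal ones -0.01, with 146 and 149. By library the distal median was 0.09, -0.06, -0.08 and -0.03 in HPRT-targeted cells, against -0.01, 0.04, -0.01 and -0.02 in negative controls, and the groups overlapped. Without the 2 libraries that stand apart the distal genes were 40 positive and 30 negative, with a median of 0.03.

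Of the 14 tested genes within 2 Mb of HPRT1, 4 were positive and 10 negative, with a median of -0.14. The lowest was ZNF449 at -0.94, and 0 had an unadjusted p under 0.05, where 2.24% of all genes did. Within 1 Mb 8 of 9 were negative. PHF6, a chromatin protein and the nearest proximal gene, was at 44.8, 42.2, 54.7 and 43.9 CPM in HPRT-targeted libraries, against 55.1, 55.7, 54.7 and 49.1 CPM in negative controls, with replicate 3 in the range of the negative controls (-0.21 ± 0.11). The next, RAP2C, a small GTPase, had -0.11 ± 0.21, and the nearest distal genes PABIR2 and MOSPD1 had -0.23 ± 0.18 and 0.05 ± 0.21. Of the same 14 genes 6 were positive and 8 negative without the 2 libraries that stand apart, with a median of -0.06.

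**Figure D4:**
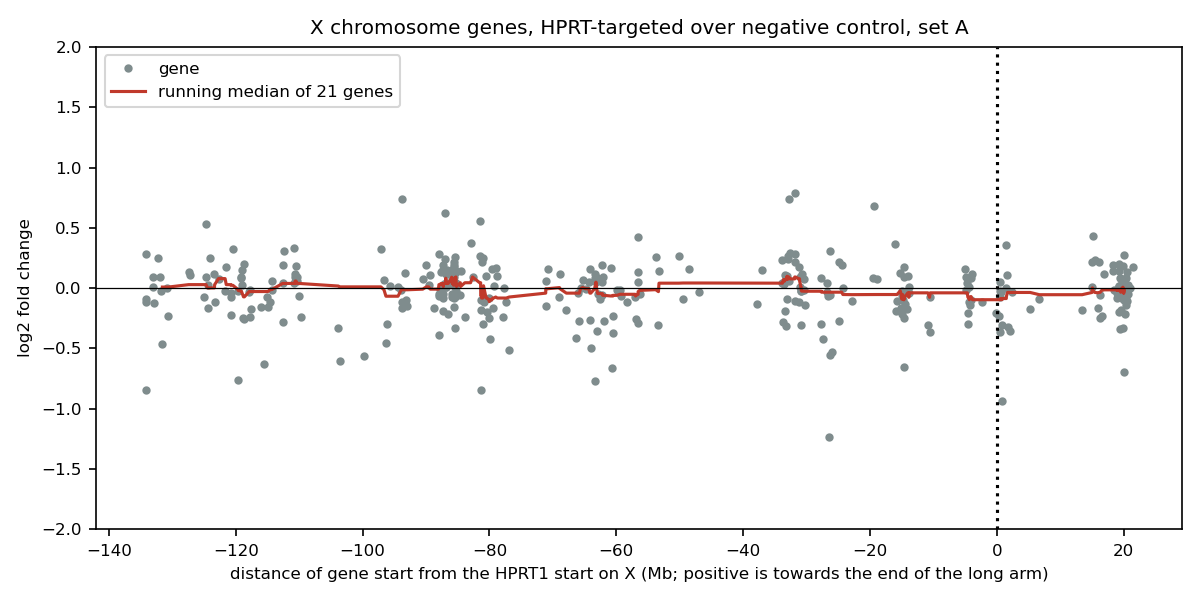
Log2 fold change of 365 tested X chromosome genes in set A, HPRT-targeted over negative control, by distance in Mb of the gene start from that of HPRT1 (dotted line); the line is the running median of 21 genes. It stays near zero on both sides of HPRT1.

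No innate immune list held a gene at an unadjusted p under 0.05, where 2.24% of all genes did. The cytosolic nucleic acid sensing genes had a median log2 fold change of -0.04 (7 positive and 9 negative of 16). The interferon-stimulated genes had 0.00 (18 and 15 of 33) and the NF-kB and endothelial inflammation genes -0.20 (5 and 10 of 15). By library the NF-kB median was -0.29, -0.02, -0.39 and -0.04 in HPRT-targeted replicates 1 to 4. In negative controls it was -0.04, 0.02, 0.02 and 0.14, so the groups overlapped. ISG15, a ubiquitin-like interferon product, was at 16.3, 9.89, 13.6 and 15.2 CPM in HPRT-targeted libraries, against 9.47, 6.94, 10.3 and 11.6 CPM in negative controls, with overlap (0.52 ± 0.31). USP18, which removes ISG15 from proteins, had 0.31 ± 0.17, IFIT3 0.73 ± 0.40 and OAS2 0.38 ± 0.24, all overlapping; IFIT3 lies opposite LIPA.

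Endothelial identity genes had 13 positive and 20 negative of 33, with a median of -0.07, and this rested on 1 library: the median was 0.03, 0.09, -0.35 and -0.02 in HPRT-targeted replicates 1 to 4, against -0.00, -0.00, -0.01 and 0.01 in negative controls. Without the 2 libraries that stand apart it was 0.02, with 18 positive and 15 negative. KDR, the main VEGF receptor, was at 52.1 ± 3.6 CPM in HPRT-targeted cells and 46.8 ± 6.3 CPM in negative controls (SD, n = 4 each; 0.16 ± 0.12), and CAV1, caveolin 1, at 1291 to 1447 and 1099 to 1251 CPM with no overlap (0.23 ± 0.17). SOX7, an endothelial transcription factor, had -0.29 ± 0.15, and VWF, von Willebrand factor, which stood at 1.70 CPM in HPRT-targeted cells and 2.81 CPM in negative controls, -0.71 ± 0.39. Of mesenchymal and smooth muscle markers 7 were positive and 8 negative of 15. ACTA2, smooth muscle actin, was at 48.5, 45.9, 34.9 and 31.2 CPM in HPRT-targeted libraries, against 24.5, 28.7, 32.7 and 32.7 CPM in negative controls (0.44 ± 0.18; it lies opposite STAMBPL1), and SMTN, smoothelin, at 18.9 to 27.4 and 31.8 to 36.6 CPM (-0.47 ± 0.19). The TGF-beta and SMAD3 targets had a median of -0.11 (8 positive and 13 negative of 21), and the 4 tested epithelial and blood genes of the wider list 0.07.

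Ribosomal protein genes were slightly higher almost throughout: 78 of 82 were positive, with a median of 0.12. Of these genes 0 had an unadjusted p under 0.05, where 2.24% of all genes did. Their median by library was 0.18, 0.07, 0.21 and -0.00 in HPRT-targeted replicates 1 to 4, against 0.01, 0.00, -0.08 and 0.05 in negative controls, so replicate 4 did not share it. RPLP1, a stalk protein, was at 2531, 2205, 2117 and 2174 CPM, against 1966, 1844, 2024 and 2044 CPM in negative controls, with no overlap (0.20 ± 0.10). The shares of counts in ribosomal protein genes, given above, overlapped between the groups, and their part in the other differences was not tested.

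Stress and metabolic lists had small medians. Integrated stress and unfolded protein response genes had -0.12, with 7 positive and 21 negative of 28. Leaving out 1 library at a time gave -0.18 to 0.0061, positive only without negative control replicate 3. ATF4, its central transcription factor, was at 272, 286, 297 and 336 CPM in HPRT-targeted libraries, against 271, 320, 467 and 440 CPM in negative controls, where the controls spread widely and the groups overlapped (-0.33 ± 0.17). Heat shock proteins had 0.01, but by library -0.12, -0.16, 0.29 and -0.01 in HPRT-targeted replicates 1 to 4, and without the 2 libraries that stand apart 15 of 16 were negative with a median of -0.12. Mitochondrially encoded genes had 0.02, and by library 0.10, 0.41, -0.40 and 0.06, a wider spread than the -0.17 to 0.12 of the negative controls. Of these 13 genes 12 were positive without the 2 libraries that stand apart, with a median of 0.20, and 4 had an unadjusted p under 0.05, all higher, where 2.91% of all genes did in that direction; without HPRT-targeted replicate 2 the median was -0.14 and without negative control replicate 1 it was -0.021. NRF2 targets had 0.10 (12 positive and 7 negative of 19). By library their median was 0.06, 0.06, 0.26 and 0.07 in HPRT-targeted replicates 1 to 4. In negative controls it was -0.05, -0.04, 0.02 and 0.01, with no overlap. Glycolysis and hypoxia genes had 0.11 (19 positive and 9 negative of 28), early response genes 0.02 (11 and 8 of 19), and cholesterol and fatty acid synthesis genes 0.06 (22 and 10 of 32). In the last list PMVK, phosphomevalonate kinase, was at 29.8 to 36.8 CPM in HPRT-targeted libraries and 25.1 to 27.4 CPM in negative controls (0.32 ± 0.14), and SC5D, a sterol desaturase, had 0.28 ± 0.13.

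The same contrast in set B, on other libraries, called 0 of 11769 genes (0%) with edgeR, and 206 (1.75%) had an unadjusted p under 0.05. Of 11330 genes tested in both sets, 7125 (62.9%) had the same sign, and Pearson's r across genes was 0.23. At a mean of at least 10 CPM the share was 65.7% and r 0.45 over 8235 genes. Without the 7 libraries of the study that stand apart, 2 of them in set A, the shares were 57.6% and 59.6% and r 0.09 and 0.24. In set B the libraries left out were HPRT-targeted replicates 2 and 4, negative control replicates 6 and 7 and LDAH deletion replicate 4. Only replicates 1 and 3 of the HPRT-targeted group then remained in set B. The measure that set the set B libraries apart is not reported here. Genes are not independent replicates, and each set's genes share libraries, so these values describe the 2 sets only.

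The p53 targets were 36 positive and 17 negative in set B, where 46.9% of all genes were positive; their median log2 fold change was 0.14 there and 0.18 in set A, while the cell cycle genes were 37 positive and 88 negative, with a median of -0.17, and -0.22 in set A. The feedback and arrest targets had 0.28 in set B and 0.19 in set A, but the repair and metabolic targets 0.01 in set B and 0.27 in set A. MDM2 had 0.64 ± 0.16 in set B, CDKN1A 0.44 ± 0.23, SGO1 -0.49 ± 0.19, HMGB2 -0.45 ± 0.25 and TMPO -0.32 ± 0.15. CMBL had 0.01 ± 0.41 in set B. Of the 10 higher genes 8 had the same sign in set B, and of the 10 lower genes 7, where 65.7% of all genes at a mean of at least 10 CPM did. NRM had 0.31 ± 0.20 in set B, the other sign from set A.

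The difference of the effects between the sets, tested for each gene in a fit of all 27 libraries, was called for 0 of 12055 genes (0%; edgeR), and 159 (1.32%) had an unadjusted p under 0.05. The difference, set A minus set B, was 0.17 for CDKN1A, -0.24 for MDM2, 0.84 for CMBL and -0.68 for NRM on the log2 scale, and the adjusted p of each was above 0.05. Without HPRT-targeted replicate 3, DPH1 was called.

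**Figure D5:**
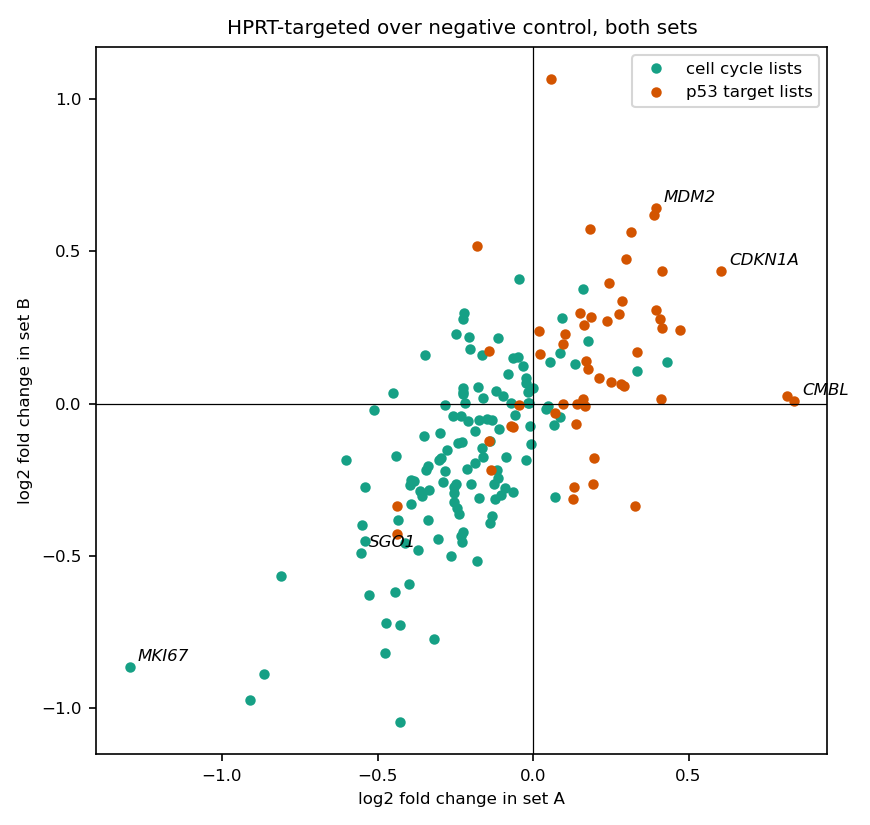
Log2 fold change of HPRT-targeted over negative control libraries in set A and in set B, 1 point per gene of the p53 (orange) and cell cycle (green) lists. Most p53 targets lie in the upper right quadrant and most cell cycle genes in the lower left, and CMBL, at 0.84 in set A, is at 0.01 in set B.

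The SMAD3 deletion libraries of set A also received cutting guides, and their comparison with the negative control uses the same 4 control libraries, so values are given side by side and nothing is read from their likeness. Against the negative control it called 0 of 11467 genes (0%; edgeR), and 778 (6.78%) had an unadjusted p under 0.05. The median log2 fold change of p53 targets was 0.18 for HPRT targeting and 0.22 for SMAD3 deletion, and that of cell cycle genes -0.22 and -0.25. CDKN1A had 0.60 and 0.45, MDM2 0.39 and 0.49, HMGB2 -0.52 and -0.36, and TMPO -0.36 and -0.36. HPRT1 had -0.33 in HPRT-targeted cells and 0.21 in SMAD3 deletion cells, where it was at 42.6, 37.7, 39.7 and 69.2 CPM. Replicate 4, the library that stands apart, was above all negative controls, and the other 3 were within their range.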

How the data were processed

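The authors deposited whole-number read counts per gene for 14008 genes and 27 libraries; per the labels' protocols these are QuantSeq 3′ libraries read for 86 cycles, and per the submitters' processing notes edgeR 3.24.3 and hg38 were used. The aligner is not given in the sources used here, nor is the counter. Ensembl IDs had symbols for 14006 genes (57 through GENCODE 29). From the deposited counts, edgeR 4.0.16 in R 4.3.3 was run on the 12 libraries of set A with TMM normalisation, filterByExpr by group and a two-sided quasi-likelihood test, adjusted by Benjamini-Hochberg over all genes tested at 0.05. SEs are the log2 fold change over the square root of F. The HPRT1 permutation used log2 CPM with a prior count of 2.

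The test was run on simulated data with the same spread for every gene and no library that stands apart. That check does not show how many changes the test would miss in the real libraries. No library was a copy: replicate pairs had chi-square values of 3.03 to 27.8 times their degrees of freedom. A count of 0 allows up to 0.387 to 0.630 CPM (3 counts), which covers counting error only. The S numbers of the 2 groups alternate from 26 to 33; what they mean is not given. Alternatives were DESeq2 1.42.0, limma 3.58.1 voom with quality weights, DESeq2 size factors, no filter, a mean of 10 CPM, other library sets and leaving out each library. Named genes are HPRT1 and its 2 neighbours on each side, the 10 of smallest p in each direction at a mean of at least 10 CPM, the 4 of smallest p in each list, and 13 fixed p53 and cell cycle genes. Some genes that meet this rule are not reported here. The libraries, the 22 gene lists and the libraries left out were chosen with earlier results of these data known.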

Additional observations from a re-analysis of the deposited data

Results flagged for a closer look

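In 9 of 162 sets of 4 libraries examined, 1 library lay far from the other 3, which chance gives in about 1 of 20 sets. HPRT-targeted replicate 3 was the high library for HPRT1 at 42.2 CPM, RPRD1B at 12.1 CPM and DPH1 at 36.8 CPM, and it is the library that stands apart from the set. Negative control replicate 1 was the high library for CDKN1A at 418 CPM, RRM2B at 92.5 CPM and USP18 at 43.1 CPM. Among the HPRT-targeted libraries WDR76 was high in replicate 4, at 19.0 CPM. Among the negative controls MCM10 was high in replicate 2, at 41.5 CPM, and PHF6 was low in replicate 4, at 49.1 CPM.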

How the results depend on the processing

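No paired analysis was run, because the labels give the groups no shared replicate numbers. They do not say whether neighbouring S numbers mark pairs, and a pairing by S number was not tested. The count of called genes in set A was 0 in every alternative except DESeq2 (1) and the omission of the 2 libraries that stand apart (1). Genes at an unadjusted p under 0.05 numbered 744 with limma voom and quality weights, 141 at a mean of at least 10 CPM, 610 with the 8 compared libraries alone, 32 with all 27 libraries and 687 without the 2 libraries that stand apart, against 257; leaving out 1 library at a time gave 177 to 318, with 0 called each time. In set B this count was 385 with no filter and 350 without the libraries that stand apart, against 206, and 154 to 525 leaving out 1 library. For the difference between the sets it was 304 with no filter and 323 without the libraries that stand apart, which called 1 gene, and leaving out 1 library gave 0 to 1 called. The number of genes tested changes with the filter and the libraries used, so these counts are not like shares of the genes tested.

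Leaving out 1 library at a time gave median log2 fold changes of 0.23 to 0.29 for p53 repair and metabolic targets, 0.16 to 0.24 for all p53 targets, -0.27 to -0.16 for cell cycle genes, -0.19 to -0.083 for DNA break genes, -0.14 to -0.056 for HMG and lamina genes, -0.27 to -0.015 for NF-kB genes and 0.039 to 0.12 for glycolysis genes. The HMG and lamina median was -0.083 with limma voom and -0.064 without the 2 libraries that stand apart; the NF-kB median was 0.087 at a mean of at least 10 CPM and -0.029 with the 8 libraries; the glycolysis median was 0.071 with limma voom; and that of epithelial and blood genes was 0.18 with no filter. The cause was not tested. HPRT1 had -0.48 to -0.18. Signs turned for genes near zero: BAX (-0.10 without negative control replicate 4 and -0.061 without HPRT-targeted replicate 4, to 0.10), FAS (-0.019 without the 2 libraries, -0.011 without HPRT-targeted replicate 2, -0.021 without replicate 3, to 0.24), PCNA (-0.26 to 0.0086, positive without negative control replicate 4), CCNB1 (-0.14 to 0.10, positive without negative control replicate 1; 0.094 without HPRT-targeted replicate 2) and MOSPD1 (-0.045 to 0.094, negative without negative control replicate 4; -0.027 without HPRT-targeted replicate 2).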
